A study of Sus scrofa with 18 samples.

Results

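The 6 arrays compared here measured the endometrium, the lining of the uterus, of pregnant Yorkshire gilts on gestational day (GD) 15 and GD50, with 3 arrays a day, out of 18 arrays in the series. They were picked by breed and day alone. The other 12 arrays cover GD26 in Yorkshire and GD15, GD26 and GD50 in Meishan, a Chinese breed known for large litters, and the labels name no treatment. The gilts were of similar age and weight, and tissue came from attachment sites in the middle of the uterine horns. Every array held pooled RNA from 1 attachment site of each of 2 gilts. Because the arrays of a day share those gilts, p-values here measure the spread between site pools and say nothing of the spread between animals. A probe set was tested where its intensity was above 100 on at least 3 of the 6 arrays, which kept 9084 of 24123 probe sets after 124 controls had been left out. They hold 4233 genes with a symbol, each represented by its brightest probe set. All levels below are log2 intensities, in which a difference of 1 is a doubling.

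The pig has a diffuse, non-invasive placenta. At the time of attachment the conceptus releases interferons and estrogen to the uterine surface, and uterine glands then feed it by secretion (histotroph), which holds binding proteins, protease inhibitors and lysosomal enzymes. By mid-gestation the fetal membranes are folded against the uterine epithelium, and nutrients cross through transporters, areolae and the vessels of both sides. The comparison asks which endometrial genes differ between attachment and mid-gestation in the less prolific of the breeds.

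The net change was wide and mostly downward as deposited. A differentially expressed gene (DEG) here has a Benjamini-Hochberg adjusted p of at most 0.05 in limma and a change of at least 2-fold, and "rose" and "fell" are used of DEGs alone. Of the 9084 probe sets, 1284 rose (14.1%) and 3179 fell (35.0%), so that 49.1% were DEGs. The median change was −0.56. The GD50 arrays were dimmer: the median of the tested probe sets was 7.85 to 8.10 on GD50 against 8.41 to 8.45 on GD15, and 6919 to 7321 probe sets passed an intensity of 100 against 8341 to 8351. The mean of the hybridization controls was higher on GD50, at 12.74 to 13.67 against 10.43 to 11.11, and the 3′ to 5′ difference of the actin control was 0.27 to 0.48 against −0.06 to 0.25. The part of these differences in the falls was not tested. With every array centred on its median, which adds 0.45 to each change, 1777 rose (19.6%) and 2096 fell (23.1%), and rises made up 45.9% of the calls in place of 28.8%. All 1284 rises and 2096 of the falls were called in both settings. The arrays of the 2 days did not overlap for 7147 probe sets (78.7%). Over genes, 532 of 4233 rose (12.6%) and 1242 fell (29.3%), with a median change of −0.46, and the counts of gene groups below are read against these.

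**Figure D1:**
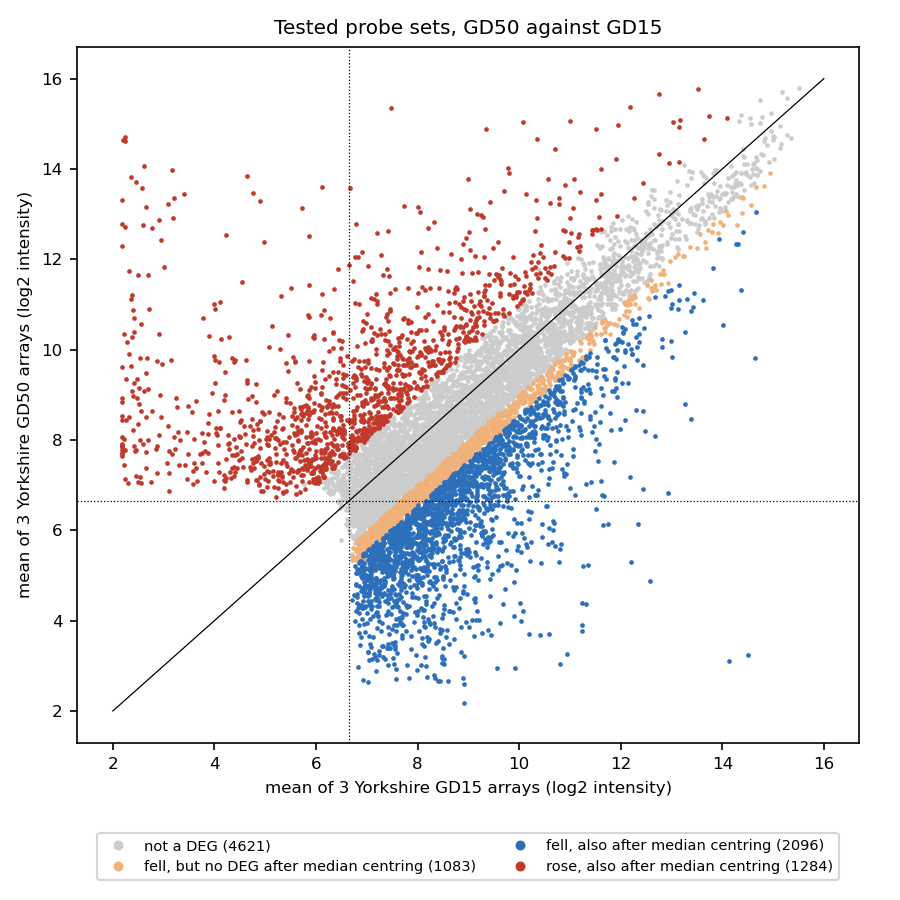
Each point is 1 of 9084 tested probe sets, with the mean log2 intensity of the 3 Yorkshire GD15 arrays on the x axis and of the 3 GD50 arrays on the y axis; dotted lines mark an intensity of 100 and the solid line equal levels. Red points (1284) rose and blue points (2096) fell in both settings, and orange points (1083) fell as deposited alone, in a band next to those not called (grey).

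Many of the changes ran between a signal near the floor of the array and a strong one. Of the tested probe sets, 598 were under 100 on all GD15 arrays and above it on all GD50 arrays, and 567 of these rose. The opposite held for 1352, of which 1252 fell as deposited and 1062 in both settings. Where all arrays of the dimmer day were under 100, folds are given as lower bounds, with 100 in place of that day. The labelled tissue was checked by its markers. The epithelial genes EPCAM (12.84 to 13.46) and KRT18 (11.26 to 12.02) and the stromal gene VIM (12.92 to 13.94) were above 100 on all 6 arrays. The 1 probe set each that carries the symbol of the steroid receptors PGR and ESR1 and of the stromal collagen COL3A1 was under 100 on all 6 arrays, which gives no level for these genes.

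Among the largest rises were genes known from trophoblast, the outer layer of the placenta. PLET1, a surface protein first described in placenta, was at 2.32, 2.19 and 2.19 on GD15 and 14.75, 14.47 and 14.86 on GD50, a rise of at least 265-fold (log2 change 12.46 ± 0.16, adjusted p = 3.77e-11). PAG6, a pregnancy-associated glycoprotein made by trophoblast, was at 2.59, 2.67 and 2.59 on GD15 and 14.15, 13.61 and 14.45 on GD50, which is at least 172-fold higher (11.46 ± 0.23). Both were near the floor on every GD15 array and among the brightest signals on every GD50 array. DPPA5, an RNA-binding protein of pluripotent cells, was at 2.18, 2.18 and 2.18 on GD15 and 13.27, 13.29 and 13.42 on GD50 and rose at least 103-fold. Of the 32 genes of a trophoblast and placental list, 12 passed the filter. Of these 12, 8 rose and 1 fell, with a median change of 6.57. They include PPAG3, another gene of the same glycoprotein family (mean 2.42 on GD15 and 10.39 on GD50), PLAC1, a placental membrane protein (2.97 and 9.68), and GATA3, a transcription factor of trophoblast (2.69 and 9.12). PLAC8 fell, from 7.18 to 4.65. Glycoproteins of this family are near-identical in sequence, and their probe sets may share signal. PLET1, PAG6, PPAG3, PLAC1 and GATA3 were under 100 on all GD15 arrays and passed the filter only through the GD50 arrays. Their rises, and in part the median of the list, thus follow from the filter and are no separate evidence of a trend. The log2 of the summed intensity (below, the summed level) of the 19 list genes with a probe set was 12.52 to 12.80 on GD15 and 15.9 to 16.4 on GD50, and 5 of them (CGA, GCM1, IFNG, PEG3 and TFAP2C) were under 100 on all 6 arrays. The part of trophoblast RNA in any other rise named here was not tested. In bulk tissue, fewer cells of a type and less RNA per cell cannot be told apart.

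Other large rises were those of secreted and binding proteins. HP, haptoglobin, which binds free haemoglobin, was at 2.97, 3.09 and 3.43 on GD15 and 13.75, 13.87 and 14.31 on GD50, at least 161-fold higher (10.82 ± 0.20, adjusted p = 3.26e-10). RBP7, a cellular retinol-binding protein, was at 2.35, 2.71 and 2.32 on GD15 and 13.98, 13.75 and 13.44 on GD50, at least 135-fold higher. CHI3L1, a secreted chitinase-like glycoprotein, was at 5.82, 5.94 and 5.43 on GD15 and 13.57, 13.01 and 12.81 on GD50, at least 89.7-fold higher. The days did not overlap for any of these 3 genes, which was also true of 78.7% of all tested probe sets. BPI, which binds bacterial lipopolysaccharide, rose from a mean of 2.60 to 12.75, and RNASE1, a secreted ribonuclease, from 5.86 to 12.51. SERPINA3-2, a serine protease inhibitor, was at 2.82, 2.21 and 2.49 on GD15 and 10.72, 12.63 and 11.63 on GD50, at least 32.4-fold higher. Of 18 measured acute phase proteins and protease inhibitors, 6 rose, and 5 fell as deposited and 2 in both settings, with a median change of −0.03. CBR1, a carbonyl reductase that acts on prostaglandins, was at 2.28, 2.58 and 2.18 on GD15 and 14.01, 13.72 and 13.73 on GD50 and rose at least 144-fold, while CBR2, a related reductase, fell at least 10.8-fold, from 10.07 to 4.22. ETNPPL, which breaks down phosphoethanolamine, was near the floor on GD15 and GD26, with means of 2.19 and 2.18, and was at 12.79 on GD50. NUDT4, a hydrolase of inositol polyphosphates, rose 44.0-fold from 7.73 to 13.19.

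**Figure D2:**
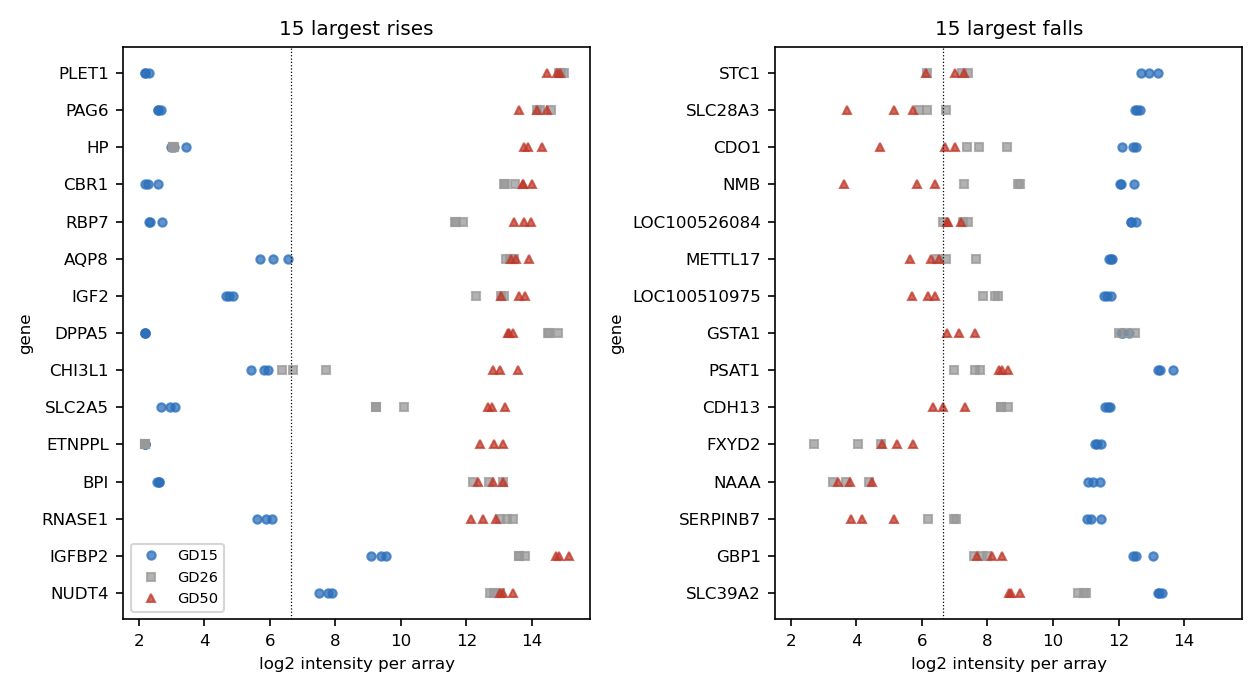
Log2 intensity (x axis) of the 15 genes with the largest rises (left) and the 15 with the largest falls (right) on each of the 3 Yorkshire GD15 (blue circles), GD26 (grey squares) and GD50 (red triangles) arrays; the dotted line marks an intensity of 100. GD15 and GD50 points are apart in every row, and GD26 lies near GD50 for most genes but near GD15 for HP, CHI3L1, ETNPPL and GSTA1.

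The insulin-like growth factor (IGF) system, which regulates growth of the placenta and fetus, had ligands that moved in opposite directions. IGF2, a growth factor of fetal tissues, was at 4.75, 4.65 and 4.88 on GD15 and 13.59, 13.05 and 13.78 on GD50, at least 114-fold higher (8.71 ± 0.27, adjusted p = 1.48e-08). IGF1, the ligand known from cycling and early pregnant uterus, was at 8.14, 8.31 and 8.01 on GD15 and 3.75, 3.89 and 3.98 on GD50, at least 2.84-fold lower (−4.28 ± 0.16, adjusted p = 4.83e-08). The days did not overlap for either ligand, which was also true of 78.7% of all tested probe sets. IGFBP2 and IGFBP5, which bind IGFs outside the cell, rose as well. IGFBP2 was at 9.38, 9.09 and 9.53 on GD15 and 15.12, 14.73 and 14.83 on GD50, 47.1-fold higher, and IGFBP5 went from a mean of 5.14 to 10.53. STC1, stanniocalcin, a glycoprotein hormone that inhibits the protease of IGF-binding proteins, was at 12.70, 12.92 and 13.19 on GD15 and 7.02, 7.29 and 6.14 on GD50, 69.7-fold lower (−6.12 ± 0.38). Over the 6 measured genes of this list 4 rose and 2 fell, with a median change of 3.88. IGF2 also stands in the trophoblast list and is part of its summed level, so that the sum is not independent of it.

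Uterine secretory proteins moved both ways. Beside STC1, SAL1, salivary lipocalin, a carrier of small hydrophobic molecules, was at 11.54, 10.69 and 10.15 on GD15 and 2.60, 3.93 and 2.61 on GD50, at least 17.8-fold lower. MUC4, a membrane mucin, fell 9.59-fold, from 10.26 to 6.99. SLPI and WFDC2, small secreted protease inhibitors, rose 4.72-fold and 4.04-fold, and SPP1, osteopontin, a ligand of integrins at the attachment surface, was at 11.86, 13.62 and 12.78 on GD15 and 15.64, 15.68 and 15.63 on GD50, 7.44-fold higher. These 3 genes were already bright on GD15. ACP5, uteroferrin, the iron-carrying phosphatase of the glands, was high on both days, at 14.39, 14.34 and 14.38 on GD15 and 15.19, 15.19 and 15.23 on GD50, with a change of 0.83 ± 0.15 that was under the fold limit as deposited and past it after centring (1.29, adjusted p = 0.000184). Of 15 measured genes of the list, 6 rose and 6 fell (5 in both settings), with a median change of 0.83.

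Most lysosomal enzymes rose. Of 24 measured lysosomal enzymes and cathepsins, 16 rose and 1 fell in both settings, with a median change of 1.22 against −0.46 over all genes. GLB1, beta-galactosidase, was at 9.43, 9.83 and 10.14 on GD15 and 14.03, 13.90 and 13.79 on GD50, 17.3-fold higher (4.11 ± 0.21, adjusted p = 3.19e-07). GRN, progranulin, which is needed for lysosome function, was at 10.61, 10.68 and 10.86 on GD15 and 14.57, 14.03 and 14.74 on GD50, 13.3-fold higher. CTSZ, a cathepsin, rose 9.88-fold from 10.13 to 13.44, and GUSB, beta-glucuronidase, 9.85-fold from 8.09 to 11.39. All these were clearly detected on GD15.

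Of 16 measured genes of steroid synthesis and metabolism, 10 rose in both settings and 1 fell as deposited alone, with a median change of 1.41. STAR, which moves cholesterol into mitochondria, and CYP11A1, which makes pregnenolone from it, were near the floor on GD15 at means of 2.40 and 2.18 and reached 8.22 and 7.85 on GD50. Both were higher on GD26, at 10.32 and 8.98. HSD3B1, the next enzyme toward progesterone, was at 3.16, 3.09 and 3.07 on GD15 and 7.81, 7.17 and 8.29 on GD50, at least 2.16-fold higher. The enzymes that turn cortisone into cortisol and back, HSD11B1 and HSD11B2, rose 5.27-fold and 5.90-fold, and HSD17B12 rose 4.28-fold. The summed trophoblast markers moved with this group, and their part in it was not tested. Among receptors, PGRMC1, a membrane component tied to progesterone binding, was at 13.67, 13.64 and 13.57 on GD15 and 11.02, 11.24 and 11.05 on GD50 and fell 5.75-fold. It was 1 of only 2 receptor genes that could be tested.

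The transporters were split: of 21 measured, 9 rose and 9 fell (7 in both settings), with a median change of 0.60. Carriers of simple sugars were on both sides. SLC2A5, the fructose transporter, was at 2.67, 2.94 and 3.12 on GD15 and 13.18, 12.66 and 12.78 on GD50, at least 74.9-fold higher (9.96 ± 0.27, adjusted p = 5.44e-09). SLC2A3, a high-affinity glucose transporter, was at 6.88, 6.91 and 7.27 on GD15 and 11.98, 11.65 and 11.95 on GD50, 28.6-fold higher, and SLC2A12, another facilitative glucose transporter, rose 15.7-fold. SLC5A1, the sodium-driven glucose transporter, was at 9.48, 9.58 and 9.63 on GD15 and 2.88, 3.17 and 2.79 on GD50, at least 7.57-fold lower (−6.62 ± 0.44). AQP8, a water channel, was at 5.70, 6.09 and 6.55 on GD15 and 13.92, 13.35 and 13.52 on GD50, at least 124-fold higher. SLC28A3, a nucleoside transporter, was at 12.51, 12.57 and 12.67 on GD15 and 3.72, 5.16 and 5.73 on GD50, at least 61.3-fold lower, SLC39A2, a zinc importer, fell 22.2-fold from 13.26 to 8.79, and FXYD2, a subunit that modulates the sodium pump, fell at least 26.2-fold. In iron handling, TFRC, the transferrin receptor, was at 2.29, 2.33 and 2.18 on GD15 and 10.35, 9.98 and 10.19 on GD50, at least 11.5-fold higher, while SLC11A2, which imports ferrous iron, fell at least 6.61-fold. Of 8 measured iron genes 2 rose and 2 fell.

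**Figure D3:**
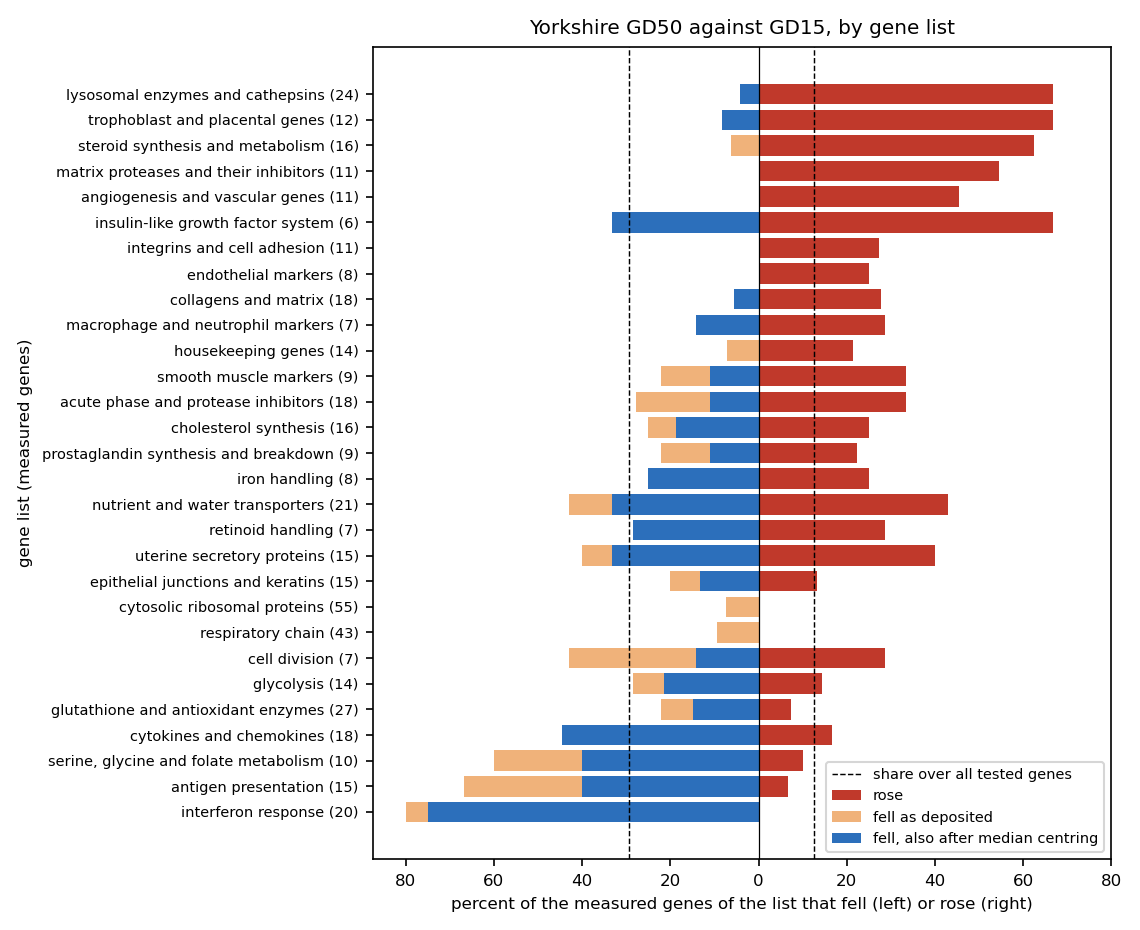
Share of the measured genes (number in parentheses) of each list with 6 or more measured genes that rose (red, right) or fell (left, blue in both settings, orange as deposited alone) from GD15 to GD50 in Yorkshire; dashed lines mark the shares over all 4233 genes, 12.6% and 29.3%. Lysosomal, trophoblast, insulin-like growth factor and steroid lists reach farthest to the right and interferon response farthest to the left.

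Retinoid genes also split. RARRES1, a retinoid-responsive membrane protein, rose 13.3-fold, while ALDH1A1, which makes retinoic acid, fell 5.74-fold, from 13.38 on GD15 and 13.12 on GD26 to 10.86. CYP26A1, which breaks down retinoic acid, was at 8.26, 8.25 and 9.07 on GD15 and 3.11, 3.67 and 2.71 on GD50, at least 3.68-fold lower. Of 7 measured genes 2 rose and 2 fell. In the serine pathway PSAT1, PHGDH and PSPH, the 3 enzymes that make serine from a glycolytic intermediate, all fell. PSAT1 was at 13.20, 13.28 and 13.66 on GD15 and 8.62, 8.35 and 8.44 on GD50, 30.1-fold lower (−4.91 ± 0.23, adjusted p = 1.87e-07). PHGDH fell 9.38-fold and PSPH 8.25-fold, the latter from 14.36 to 11.31. Of 10 measured serine, glycine and folate genes 6 fell as deposited, 4 in both settings, and 1 rose. CDO1, which oxidises cysteine, was at 12.11, 12.52 and 12.43 on GD15 and 6.70, 4.72 and 7.02 on GD50, a change of −6.21 ± 0.54; its GD50 mean was under 100, and with such values set to 100 it was 47.5-fold lower. GSTA1, a glutathione transferase, was at 12.14, 12.09 and 12.32 on GD15 and 6.77, 7.14 and 7.63 on GD50, 32.1-fold lower, and GSTM3, a transferase of another class, fell 13.2-fold; glutathione transferases are close paralogs whose probe sets may share signal. SOD3, the secreted superoxide dismutase, rose 14.0-fold. PDK4, which holds back pyruvate oxidation, fell at least 13.9-fold, and PFKP, a glycolytic kinase, 6.99-fold. In cholesterol synthesis FDFT1, squalene synthase, and FDPS, which makes its substrate, fell 6.85-fold and 5.57-fold, and TM7SF2, a late sterol reductase, rose at least 5.74-fold.

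Other large falls had no shared list. NMB, neuromedin B, a peptide hormone, was at 12.09, 12.04 and 12.47 on GD15 and 3.61, 5.85 and 6.39 on GD50, at least 46.9-fold lower. CDH13, a cadherin anchored by a lipid, fell 30.0-fold from 11.67 to 6.76, and NAAA, which degrades fatty acid amides, at least 24.1-fold from 11.23 to 3.91. SERPINB7, an intracellular serpin, was at 11.04, 11.16 and 11.48 on GD15 and 3.84, 5.14 and 4.17 on GD50, at least 24.0-fold lower. METTL17, a methyltransferase-like protein of mitochondria, fell at least 34.7-fold, and the uncharacterised genes LOC100526084 and LOC100510975 fell 45.8-fold and at least 32.3-fold. FST, follistatin, which binds activin, went from 8.91 to 2.60.

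Most interferon response genes fell in Yorkshire, and none rose. Of 20 measured, 16 fell as deposited and 15 in both settings, against 29.3% of all genes as deposited, and the median change was −1.87 (−1.42 after centring). The falls numbered 12 after quantile normalization and 13 after cyclic loess. OAS1, an antiviral synthetase, was at 11.28, 10.80 and 10.32 on GD15 and 5.44, 4.82 and 6.53 on GD50, at least 17.8-fold lower (−5.21 ± 0.39, adjusted p = 3.56e-06). GBP1 and GBP2, guanylate-binding proteins induced by interferon gamma, fell 23.9-fold and at least 9.19-fold. GBP1 was at 13.04, 12.53 and 12.44 on GD15 and 8.14, 8.46 and 7.67 on GD50. The transcription factors IRF1 and STAT2 fell 6.62-fold and at least 2.21-fold, and the chemokine CXCL9 at least 6.07-fold. ISG15, a ubiquitin-like protein, was at 10.19, 10.06 and 11.17 on GD15 and 8.92, 7.84 and 8.98 on GD50, 3.70-fold lower, and IFIT1, which binds viral RNA, fell 3.07-fold. RSAD2, another antiviral gene, changed by −0.50 ± 0.45 (adjusted p = 0.348), and by 0.33 after quantile normalization and 0.09 after cyclic loess, so that it has no settled direction. In antigen presentation, of 15 measured genes 10 fell as deposited and 6 in both settings, and 1 rose. TAP1, the peptide transporter, was at 10.92, 10.40 and 10.37 on GD15 and 8.32, 8.28 and 7.59 on GD50, 5.65-fold lower, and the class I genes SLA-3 and SLA-6 fell 4.57-fold and 4.10-fold; class I genes are alike in sequence, so that single members are uncertain. The gene that rose was CD74, the invariant chain of class II, at 9.14, 8.82 and 9.20 on GD15 and 11.04, 11.16 and 11.03 on GD50, 4.06-fold higher.

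**Figure D4:**
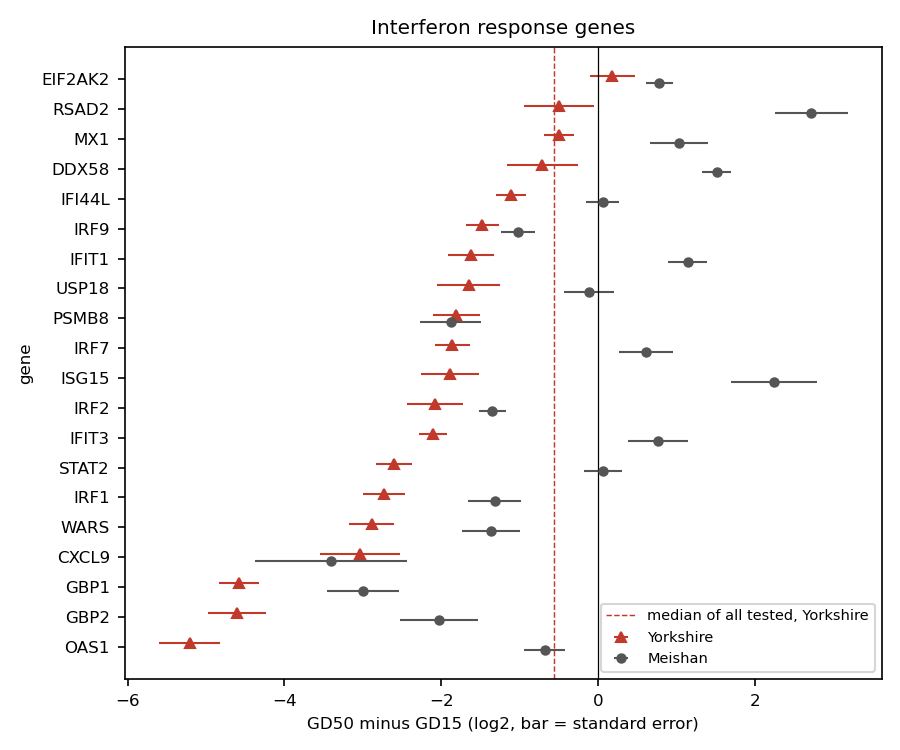
Change from GD15 to GD50 (x axis, log2, with standard error) of the 20 measured interferon response genes in Yorkshire (red triangles) and Meishan (grey circles); the dashed line is the Yorkshire median of all tested probe sets, −0.56. In Yorkshire the changes reach from OAS1 at −5.21 to EIF2AK2, with 16 falls and no rise, and in Meishan 8 fell and 5 rose.

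The summed level of 16 lymphocyte markers was 10.35 to 10.60 on GD15 and 8.69 to 9.32 on GD50, with 11 of the 16 (among them CD3D, CD3E, CD4, LCK and PTPRC) under 100 on all 6 arrays. JCHAIN, which joins antibody chains of plasma cells, was at 9.26, 9.27 and 8.83 on GD15 and 2.76, 4.13 and 4.06 on GD50, at least 5.56-fold lower. It made up a large part of the GD15 lymphocyte sum, so that the lower sum on GD50 rests largely on this gene. Only 3 lymphocyte genes could be tested, of which JCHAIN alone fell and none rose. Their median change was −0.78 (−0.32 after centring), against −0.46 over all genes as deposited. For 17 macrophage and neutrophil markers the summed level was 13.49 to 13.94 against 12.65 to 13.03, with 8 under 100 on all arrays. Counted by gene, 2 of the 7 that could be tested rose and 1 fell, with a median change of 0.20 (0.66 after centring), so that the sum and the median differ in sign. S100A9, a calcium-binding protein of neutrophils and activated epithelium, fell 8.97-fold, from a mean of 13.01 to 9.84. It alone made up a large part of the GD15 sum, so that the lower sum on GD50 rests largely on this gene. C1QA and CD163, macrophage genes, rose 4.99-fold and at least 1.89-fold. The part of these cells in the interferon and antigen presentation changes was not tested. Among 18 measured cytokines and chemokines, 8 fell and 3 rose in both settings. IL6, a cytokine of the acute phase, was at 2.18, 2.30 and 2.19 on GD15 and 10.82, 10.26 and 9.94 on GD50, at least 13-fold higher. CXCL14, an epithelial chemokine, and IL18, a cytokine processed by inflammasomes, rose 12.6-fold and 8.24-fold. The GD15 arrays of CXCL14 lay far apart, at 7.32, 11.07 and 9.44, against 13.36, 12.63 and 12.82 on GD50. With IL6 these are all 3 of the rises.

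Genes of vessels and matrix rose more often than they fell. Of 11 measured angiogenesis genes 5 rose and none fell as deposited or after centring. VEGFA, the main growth factor of endothelium, was at 8.68, 9.44 and 9.44 on GD15 and 12.03, 11.54 and 11.59 on GD50, 5.78-fold higher, a rise called on 2 of its 3 probe sets. ENG, an endothelial receptor of the transforming growth factor beta family, rose at least 6.17-fold. THBS1, thrombospondin, was at 6.76, 6.84 and 6.40 on GD15 and 12.09, 11.87 and 11.69 on GD50, 37.2-fold higher. The summed endothelial markers overlapped between days, at 11.39 to 11.72 on GD15 and 11.29 to 11.63 on GD50. Of 8 measured endothelial markers 2 rose and none fell, with a median change of −0.27 (0.19 after centring). Without the fold limit, 3 of them were called lower as deposited. The rises were ENG and ESAM, an endothelial adhesion protein. ESAM went from 5.41 to 6.87, little above an intensity of 100, and its call was lost with low values set to 100 (0.23). Of 11 matrix proteases and inhibitors 6 rose and none fell. MMP7, a protease of glandular epithelium, was at 5.15, 5.38 and 5.80 on GD15 and 10.16, 10.59 and 10.20 on GD50, at least 12.8-fold higher. TIMP3, an inhibitor of such proteases, was at 3.91, 4.53 and 3.91 on GD15 and 10.58, 9.96 and 10.17 on GD50, at least 12.1-fold higher, and ADAM9, a membrane protease, rose 11.6-fold. Of 18 collagens and matrix genes 5 rose and 1 fell: MGP, which inhibits calcification, and VCAN, versican, rose 5.26-fold and at least 3.80-fold, and COL6A3 fell 3.77-fold. Among adhesion genes ICAM1, BSG and MFGE8 rose 5.17-fold, 3.33-fold and at least 2.68-fold, 3 of 11 measured. Of 15 junction and keratin genes 2 rose and 3 fell: the plaque protein JUP rose at least 3.96-fold, and DSP, desmoplakin, and CLDN10, a claudin, fell 3.13-fold and 6.84-fold. Smooth muscle genes were mixed, with 3 of 9 rising (MYL9, 9.0-fold with values under 100 set to 100, and TAGLN, 2.95-fold, among them) and 2 falling as deposited. The smooth muscle sum was 14.24 to 14.39 on GD15 and 14.48 to 14.71 on GD50. ACTG2, a smooth muscle actin, fell on 1 of its 2 probe sets.

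Ribosomal and respiratory chain genes held few DEGs. None of 55 ribosomal protein genes rose, and 4 fell as deposited, RPL13A, RPL19 and RPL35 among them by 2.05-fold, 2.05-fold and 2.01-fold. None fell after centring. The median was −0.59, against −0.46 over all genes, and −0.14 after centring. After quantile normalization it was −0.41 and after cyclic loess −0.40, against −0.17 and −0.01 over all tested probe sets. Without the fold limit, 45 of the 55 were called lower as deposited. Of 43 respiratory chain genes 4 fell as deposited, among them NDUFA12, SDHB and NDUFS6, and none after centring, when 3 rose; the median was −0.30 as deposited and 0.15 after centring. Of 14 housekeeping genes 3 rose. ACTB, cytoplasmic actin, often used as a reference, was at 10.13, 12.59 and 13.10 on GD15 and 15.04, 14.97 and 14.94 on GD50, 8.25-fold higher (3.05 ± 0.61, adjusted p = 0.00163) on 1 of its 2 probe sets, with GD15 arrays that lay far apart, and YWHAZ rose 3.86-fold. Of 7 measured cell division genes 2 rose and 3 fell, 1 of the falls in both settings. The rises, named after their values were seen, were those of CCNB1, a mitotic cyclin, from a mean of 5.10 to 7.46, and TOP2A, a DNA topoisomerase, from 5.26 to 7.23. For both genes the GD15 mean was under an intensity of 100 and the GD50 mean little above it, so that the size of these rises is uncertain. HMGB2, a chromatin protein, fell 5.53-fold, while the falls of CKS2 and RRM1 (2.43-fold and 2.19-fold) were not called after centring. HBB, a haemoglobin chain, fell from a mean of 8.04 to 6.41, the latter under an intensity of 100, a call lost after cyclic loess, and APOA1 fell 2.25-fold as deposited alone. PTGES, which makes prostaglandin E2, rose 2.93-fold, and SPINT1, an inhibitor of membrane serine proteases, at least 12.4-fold.

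A panel of genes had been picked from these samples for RT-PCR, so that their direction here is not independent evidence. Of its 13 genes, 9 passed the filter, and 4 rose (THBS1, HSD17B2, MMP7 and LIF) and 3 fell (STC1, S100A9 and BMP4). LIF, a cytokine of implantation, was at 3.09, 3.52 and 4.08 on GD15 and 8.45, 8.22 and 9.17 on GD50, at least 3.92-fold higher (5.05 ± 0.31, adjusted p = 9.95e-07). HSD17B2, which inactivates estradiol, was at 9.38, 10.02 and 10.09 on GD15 and 12.06, 11.62 and 11.39 on GD50, 3.64-fold higher. BMP4, a growth factor, was at 8.72, 8.35 and 8.16 on GD15 and 5.10, 5.84 and 4.80 on GD50, at least 3.40-fold lower. ITGB3, an integrin subunit, had means of 7.88 and 7.39 on the 2 days, a change of −0.49 ± 0.43 (adjusted p = 0.325), with a lower GD26 mean of 4.93; after cyclic loess the change was 0.44, so that it has no settled direction. MSX1, a homeobox factor of uterine epithelium, changed by −0.65 ± 0.20 (adjusted p = 0.0180), under the fold limit. The other genes of the panel were not analysed here.

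Most of the net change was already seen on GD26. The GD26 mean was nearer to GD50 than to GD15 for 1025 of the 1284 rises (79.8%) and for 1999 of the 2096 falls called in both settings (95.4%). These shares are a description, and the GD26 arrays were about as dim as the GD50 arrays, with medians of 7.91 to 8.18. Late genes included HP, at a mean of 3.07 on GD26, CHI3L1 at 6.93 and ETNPPL, among the rises, and GSTA1 at 12.25 among the falls. Some DEGs passed through a lower GD26 level: S100A9 went from 13.01 to 6.38 and 9.84, and CLDN10 from 10.26 to 4.38 and 7.48.

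The same interval was measured in Meishan on separate arrays. There 1006 probe sets rose (11.1%) and 1252 fell (13.8%), with a median change of −0.13. The probe sets were those that passed the filter on the 6 Yorkshire arrays, so that any above 100 in Meishan alone were left out. The Meishan and breed counts and shares below hold for this Yorkshire-based set. With a filter of above 100 in 6 of all 18 arrays, 1137 rose and 1205 fell in Meishan, and 672 breed differences were higher and 1978 lower in Yorkshire. Of the 1284 Yorkshire rises, 692 rose in Meishan (53.9%), 15 fell and 577 were not called. Of the 2096 falls called in both settings, 946 fell in Meishan (45.1%), 15 rose and 1135 were not called. The difference between breeds was tested itself, as the Yorkshire change minus the Meishan change, and called at an adjusted p of at most 0.05 and a difference of at least 1. It was higher in Yorkshire for 701 probe sets (7.72%) and lower for 1973 (21.7%) as deposited, with 26.2% of the calls higher, against 51.7% after centring. In both settings it was higher for 701 and lower for 1011 (11.1%). Breed and whatever else separated the dim Yorkshire GD50 arrays from the Meishan arrays (median 8.36 to 8.38 on GD50) cannot be told apart.

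Several Yorkshire changes were also seen in Meishan. PLET1 changed by 12.73 there and by 12.46 in Yorkshire, PAG6 by 12.23, ETNPPL by 10.82, GLB1 by 4.21 and IGF1 by −4.49, with no breed difference called for any of these 5. Lysosomal genes rose for 15 of 24 in Meishan and steroid genes for 10 of 16. By contrast, TFRC was at 2.28, 2.18 and 2.18 on GD15 and 2.35, 2.18 and 3.48 on GD50 in Meishan, a breed difference of 7.45 ± 0.44 (adjusted p = 1.69e-08), and none of these Meishan arrays reached an intensity of 100. LIF was at 4.70, 4.76 and 4.84 on GD15 and 5.06, 5.24 and 5.50 on GD50 in Meishan (difference 4.56 ± 0.38, adjusted p = 4.49e-07), and IGFBP5 at 4.79, 4.46 and 4.07 on GD15 and 5.0, 3.73 and 4.09 on GD50 (difference 5.55 ± 0.64). For these 3 genes the Yorkshire GD15 arrays and all Meishan arrays were under 100, so that these sizes rest partly on order among dim signals. With such values set to 100 the differences were 3.53 for TFRC, 1.97 for LIF and 3.88 for IGFBP5, and all 3 were still called. IGF2 rose in both breeds, in Meishan to 9.27, and the difference was 4.03 ± 0.42. SERPINB7 was at 6.12, 6.90 and 7.38 on GD15 and 5.32, 5.62 and 5.61 on GD50, so that the Yorkshire fall of at least 24.0-fold set against a Meishan GD15 level near the limit gave a difference of −5.55 ± 0.52. NMB differed by −5.08 ± 0.91 and ITGB3, which rose in Meishan, by −4.12 ± 0.54.

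The interferon response genes differed between breeds for 9 of 20, each with a lower change in Yorkshire in both settings, against 11.1% of all probe sets. Of the named genes among them, GBP2 lost the call after cyclic loess. In Meishan 8 of the 20 genes fell and 5 rose, with a median of −0.03. ISG15 was at 11.55, 11.32 and 9.09 on GD15 and 12.75, 12.93 and 13.01 on GD50 in Meishan and rose there (2.24), against a fall in Yorkshire, and the difference was −4.13 ± 0.72 (adjusted p = 0.000467). IFIT1 likewise rose in Meishan, with a difference of −2.76 ± 0.41, and RSAD2 rose there by 2.72, with a difference of −3.22 ± 0.70. On GD15 the Meishan arrays were at 9.45, 9.32 and 8.51 for IFIT1 and 7.77, 7.56 and 5.71 for RSAD2. Replicate 3 was the lowest for these genes and for ISG15, OAS1 and STAT2. Its part in the Meishan rises was not tested. The breed differences of these 5 genes were called in every fit without 1 array. OAS1 changed by −0.68 in Meishan, a difference of −4.53 ± 0.50, and STAT2 by 0.06, a difference of −2.66 ± 0.34. CXCL9 fell in both breeds, with a difference of 0.37 ± 1.20 (adjusted p = 0.820). Its Meishan GD15 arrays lay far apart, at 9.34, 9.06 and 4.90, with replicate 3 again the lowest. All GD50 arrays of both breeds were under 100 for this gene. With such values set to 100 the difference was −0.90 and not called, so that its direction is not settled. CD74 went the other way, rising in Yorkshire and falling in Meishan (−1.79), with a difference of 3.81 ± 0.38. JUP also rose in Yorkshire, but in Meishan it was under 100 on all arrays of both days. CYP26A1 fell in both, and by more in Meishan (−8.56), where its GD15 mean was higher at 11.48.

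**Figure D5:**
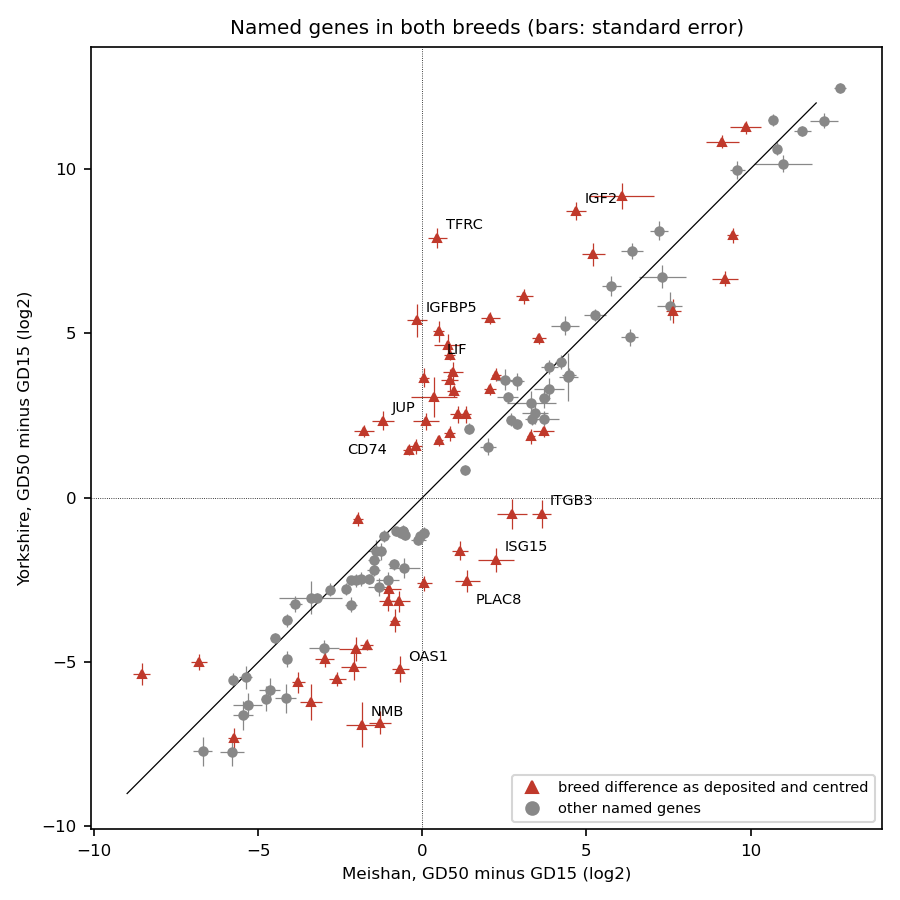
Change from GD15 to GD50 (log2, bars are standard errors) of the named genes in Meishan (x axis) and Yorkshire (y axis), with a line of equal change; red triangles have a breed difference called in both settings. TFRC, IGFBP5, LIF and IGF2 lie above the line, and NMB, ITGB3, OAS1 and ISG15 below it.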

How the data were processed

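Total RNA of 18 endometrial pools, 3 for each breed and gestational day, had been hybridized to Affymetrix porcine GeneChips. The authors made the deposited values, log2 intensities per probe set from 2.18 to 16.05, from the scanner files with the Bioconductor packages affy and GCRMA, through background correction, normalization and summarization; the submitters' processing notes also name RMA, and versions are not given in the sources used here. The scanner files were not used here, so the background correction and detection calls could not be varied. An array holds no read depth, and the number of arrays limits the precision. Array pairs correlated at 0.985 to 0.991 on GD15 and 0.955 to 0.973 on GD50 over the tested probe sets and shared at most 1.03% equal values, so all were kept as separate samples.

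Changes were tested by lmFit and eBayes of limma 3.58.1 under R 4.3.3, with 1 mean per day over the 9 arrays of a breed, and breed differences over all 18 arrays, with Benjamini-Hochberg adjustment over the 9084 probe sets. The filter and the limit of 2-fold are given in the results. Gene symbols came from the platform annotation: 5107 tested probe sets have 1 symbol, 821 of the rises and 1452 of the falls among them. No sequence was used.

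The members, the 34 gene lists, the named-gene rule and the tests were chosen with earlier results of these data known. The rule names the 15 largest rises and 15 largest falls with changes floored at an intensity of 100, the 3 largest DEGs of each list, and the 13 genes of the RT-PCR panel, 107 genes in all; 24 further list members (PPAG3, PLAC1, GATA3, PLAC8, STAR, CYP11A1, HSD3B1, IGF1, IGFBP5, SPP1, ACP5, SLPI, WFDC2, FST, SLC5A1, SLC2A12, CYP26A1, CD74, ISG15, IFIT1, STAT2, IRF1, CXCL9 and RSAD2) were chosen after their values were seen. Alternatives changed the filter, the normalization, a floor on low values, the arrays fitted, the variance trend, the adjustment and the fold limit, blocked on the replicate number or left out 1 array. Fits were tested on simulated data. Figures were drawn with matplotlib 3.10.9 in Python 3.11.15. RT-PCR values were not analysed here.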

Additional observations from a re-analysis of the deposited data

Results flagged for a closer look

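The change from GD15 to GD50 differed between breeds for 58 of the 131 named genes, by the test of the difference itself, as deposited and after median centring. The values below, in parentheses, are the Yorkshire change minus the Meishan change on the log2 scale, and no explanation was tested. For 33 of the 58, all 3 arrays of at least 1 of the 4 groups were under an intensity of 100, so that the size of these differences is that of the deposited values and not a measured size.

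Among genes that rose in Yorkshire, a larger Yorkshire change was found for the growth factor and binding protein genes IGF2 (4.03), IGFBP5 (5.55) and LIF (4.56), the iron importer TFRC (7.45), the secreted proteins HP (1.68), CHI3L1 (2.20), SERPINA3-2 (3.07), SPINT1 (3.52) and SOD3 (2.88), the retinoid genes RBP7 (1.42) and RARRES1 (1.49), the steroid enzyme HSD3B1 (3.88) and the vessel, matrix and adhesion genes ENG (3.61), VEGFA (1.20), ESAM (1.89), TIMP3 (3.00), BSG (1.22) and MFGE8 (2.73). The same held for NUDT4 (3.39), SLC2A3 (1.29), JUP (3.54), MYL9 (2.29), TAGLN (1.77), C1QA (2.22), CD163 (1.45), CD74 (3.81), GUSB (1.23), ACTB (2.70) and YWHAZ (1.12). Rises that were smaller in Yorkshire were those of RNASE1 (−2.57), HSD17B2 (−1.46), PPAG3 (−1.5), CYP11A1 (−1.97) and WFDC2 (−1.69).

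Among genes that fell in Yorkshire, the change was lower than in Meishan for the interferon response genes OAS1 (−4.53), GBP2 (−2.58), ISG15 (−4.13), IFIT1 (−2.76) and STAT2 (−2.66) and for CDO1 (−2.81), NMB (−5.08), LOC100526084 (−2.93), METTL17 (−1.82), CDH13 (−1.93), NAAA (−1.59), SERPINB7 (−5.55), SLC39A2 (−2.77), SLC11A2 (−2.91), CLDN10 (−1.76), PDK4 (−3.05), S100A9 (−2.46), BMP4 (−2.11) and PLAC8 (−3.90). It was smaller in size in Yorkshire for GSTA1 (1.81) and CYP26A1 (3.20). The genes ITGB3 (−4.12) and RSAD2 (−3.22) rose in Meishan alone and MSX1 (1.31) fell in Meishan alone.

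Some of these breed differences were lost when 1 array was left out. HP lost it without any of 6 arrays (2 Yorkshire GD15, 1 Yorkshire GD50, 1 Meishan GD15 and 2 Meishan GD50), at 1.32 to 1.67 with an adjusted p of at most 0.0893 in limma. RBP7 lost it without any of 13 arrays (0.91 to 1.54, adjusted p up to 0.122), SERPINA3-2 without any of 15 (1.86 to 3.32, up to 0.108) and ACTB without any of 11 (1.66 to 2.75, up to 0.115). VEGFA fell below the limit of 1 without Yorkshire GD15 replicate 1 (0.95), and YWHAZ without Yorkshire GD50 replicate 1 or Meishan GD50 replicate 1 (0.99 for both). The other 52 kept the call in every fit without 1 array. Other settings lost more: Bonferroni adjustment lost 35 of the 58. A floor of 100 lost 7 (RBP7, GSTA1, NAAA, SERPINA3-2, ESAM, CD163 and BMP4), a floor of 50 lost 4 of them (RBP7, NAAA, SERPINA3-2 and CD163), and centring with a floor of 100 lost 8 (RBP7, RNASE1, NAAA, SERPINA3-2, ESAM, CD163, BMP4 and PPAG3). Quantile normalization lost 5 (RBP7, NAAA, SERPINA3-2, CLDN10 and ACTB) and cyclic loess 4 (NAAA, CLDN10, GBP2 and PPAG3). Fits without a filter lost 4 (HP, RBP7, SERPINA3-2 and ACTB), and a fit of the GD15 and GD50 arrays alone lost 3 (RBP7, SERPINA3-2 and ACTB).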

How the results depend on the processing

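No named gene that was called between GD15 and GD50 changed direction under any alternative; ITGB3 (0.44 after cyclic loess) and RSAD2 (0.33 after quantile normalization, 0.09 after loess and 0.12 with centring and a floor of 100), which were not called, changed sign. The calls of 9 genes were lost after median centring (CKS2, RRM1, APOA1, RPL13A, RPL19, RPL35, NDUFA12, SDHB and NDUFS6), 28 with Bonferroni, and 3 with low values set to 100 (ESAM, CD163 and PLAC8); HBB was lost after loess (−0.99) and STAT2 with centring and the floor (−0.98); leaving out 1 array lost RPL13A, RPL19, RPL35, NDUFS6 or SDHB (changes of −0.91 to −0.98). The cause of the other shifts was not tested. With Bonferroni 574 probe sets rose and 734 fell in Yorkshire, 438 and 367 in Meishan, and 181 and 180 breed differences were higher and lower in Yorkshire. Without a fold limit 1951 rose and 2761 fell in Meishan. Without a filter 2143 rose in Yorkshire and 1296 breed differences were higher. After median centring 2096 fell in Yorkshire, with 1082 higher and 1011 lower breed differences. After quantile normalization 1991 fell, with 1076 and 910, and rises were 47.0% of the calls. After cyclic loess 1562 fell, with 1182 and 748, and rises were 55.2%, against 28.8% as deposited. Centring together with a floor of 100, chosen after seeing the data, gave 1475 falls in Yorkshire (52.5% rises), 819 in Meishan and 630 lower breed differences. Counted over genes, which are fewer, and adjusted over genes alone (adjusted over all probe sets 1242 genes fell), 532 rose and 1241 fell in Yorkshire, 470 and 495 in Meishan, and 255 and 760 breed differences were called. Differences higher in Yorkshire also gained more than 10 points of the breed calls after these scalings. They made up 54.2% (quantile), 61.2% (loess) and 60.8% (centring with the floor), against 26.2% as deposited. Rises made up 57.3% of the Meishan calls after loess, against 44.6% as deposited. With a floor of 100 the breed differences of SERPINA3-2 (−0.09) and CD163 (−0.15) were reversed and not called. Leaving out 1 array gave 1223 to 1315 rises and 3015 to 3269 falls in Yorkshire, 981 to 1028 and 1181 to 1352 in Meishan, and 646 to 743 higher and 1722 to 2146 lower breed differences.

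No pairing by replicate number was seen between GD15 and GD50: same-numbered arrays of these days deviated from their group means with correlations of −0.08 to 0. For GD15 with GD26 the same-numbered correlations were 0.27, −0.08 and 0.2, and for GD26 with GD50 they were 0.13, 0.15 and −0.03. Pairs with different numbers ranged from −0.31 to 0.19 over all days. With the replicate number as a block 1286 rose and 3194 fell in Yorkshire, and no call of a named gene between days changed. Signals under an intensity of 100 limit what can be said of genes that were dim on both days.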

Other observations

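Some genes came back to their GD15 level by GD50 after a different level on GD26, which the net comparison does not show. Of 4085 probe sets with a net change under 2-fold as deposited and after centring, the GD26 mean was at least 2-fold above both other days for 47 and at least 2-fold below both for 45. These are descriptions without a test, and the genes named here were chosen after their values were seen. APOE, a lipid carrier, had means of 8.51, 11.2 and 8.61 on GD15, GD26 and GD50, with SDs of 0.27, 0.42 and 0.28 over 3 arrays. PTGFRN, which regulates the prostaglandin F2 alpha receptor, had means of 7.07, 9.70 and 7.57. In the other direction, PTGS2, the inducible cyclooxygenase of prostaglandin synthesis, had means of 10.48, 9.04 and 10.78, TLR4, the receptor of bacterial lipopolysaccharide, 9.16, 6.97 and 8.75, and GADD45G, a stress response gene, 8.42, 5.67 and 8.21. For TLR4 and GADD45G the SDs were at most 0.15 and 0.46.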
